A study of Mus musculus with 8 samples.

Results

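The dystrophin-glycoprotein complex genes described here are Dmd, Utrn, Dag1, Sgca, Sgcb, Sgcd, Dtna and Sspn. They were chosen by name, as the rows of the deposited table with these gene names, and all 8 were found among the 47643 genes of the table. Quadriceps RNA of C57BL/6 mice was sequenced from 4 animals labelled Nup210+/+ and 4 animals labelled Nup210-/-, with 1 library per mouse, and the methods name the backcross strain as C57BL/6J. The Nup210-/- line carries a constitutive deletion of exon 2 of Nup210, a transmembrane nucleoporin, made by Hprt-Cre recombination of a floxed allele, so the deletion is not limited to muscle fibers. The protocol given for these libraries mentions no injury, and the sources used here give neither age nor sex for these mice. The comparison asked whether transcripts of the complex differ between quadriceps of the genotypes, in a line whose muscle repair and muscle integrity with age were under study.

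Dystrophin is a long cytoplasmic protein that ties the actin cytoskeleton beneath the muscle membrane to a cluster of membrane proteins. Dystroglycan, in the centre of that cluster, binds laminin of the basement membrane through sugar chains on its outer subunit, and the sarcoglycans and sarcospan hold it in place. Dystrobrevin and the syntrophins bind on the inner side and carry signaling proteins such as neuronal nitric oxide synthase. Loss of dystrophin or of a sarcoglycan causes muscular dystrophy, with fragile membranes, repeated degeneration and centrally nucleated regenerating fibers. Utrophin is the close relative of dystrophin, concentrated at the neuromuscular junction and in developing or regenerating fibers.

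On the GRCm38 (mm10) genome, Dmd occupies chrX:82948870-85206141 on the plus strand, and the deposited table lists 14 transcripts for it, whose annotated lengths run from 369 to 14910 bases. Utrn occupies chr10:12382188-12869365 on the minus strand, with 1 listed transcript of 12382 bases and 74 exons. Dag1 lies at chr9:108204634-108263958 on the minus strand. The sarcoglycan genes Sgca at chr11:94962791-94976327, Sgcb at chr5:73632749-73647790 and Sgcd at chr11:46896253-47988969 are also on the minus strand. Sspn lies at chr6:145931641-145965223, and both Sspn and Dtna are on the plus strand. No exon of Dmd, Utrn, Dag1 or the 3 sarcoglycan members overlaps an exon of another annotated gene. Exons of Dtna and Sspn overlap genes on the opposite strand (Gm47898 and Sspnos). The libraries were directional, but whether strand was used in quantification is not given in the sources used here. The overlaps are those of GENCODE M21. Whether the opposite genes were in the Ensembl release 84 annotations used for quantification was not checked. Where both genes were annotated, reads of these pairs may have been assigned to either.

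Upstream sequence is shown for Dmd, Sgcb and Sspn, members whose upstream windows are largely free of annotated exons and whose transcripts had unadjusted p-values under 0.05 below. Windows of 250 bases before the RefSeq start (GRCm38.p6) were found for 7 of the 8 members, in 10 entries, and Dtna had none. Each was searched on both strands for the E-box (CANNTG, bound by myogenic basic helix-loop-helix factors), the CArG box (bound by serum response factor) and the MEF2 site, the motif of the factor family to which Mef2C belongs. Capitals mark every match in the lines that follow, which run from 5′ to 3′ on the strand of the gene. For Sgcb, the 53 bases of the window next to the start lie in an annotated exon and are not printed.
Dmd, upstream start, chrX:82948620-82948869: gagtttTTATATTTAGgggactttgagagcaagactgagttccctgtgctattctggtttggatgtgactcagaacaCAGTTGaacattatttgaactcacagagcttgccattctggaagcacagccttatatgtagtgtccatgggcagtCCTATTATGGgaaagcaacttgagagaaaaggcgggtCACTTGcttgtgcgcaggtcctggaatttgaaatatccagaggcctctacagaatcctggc
Dmd, downstream start, chrX:85048045-85048294: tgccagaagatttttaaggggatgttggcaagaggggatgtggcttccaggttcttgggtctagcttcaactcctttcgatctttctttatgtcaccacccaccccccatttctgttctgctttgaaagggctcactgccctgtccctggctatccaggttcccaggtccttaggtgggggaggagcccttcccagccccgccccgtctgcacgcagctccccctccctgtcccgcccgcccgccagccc
Sgcb, chr5:73647791-73647987: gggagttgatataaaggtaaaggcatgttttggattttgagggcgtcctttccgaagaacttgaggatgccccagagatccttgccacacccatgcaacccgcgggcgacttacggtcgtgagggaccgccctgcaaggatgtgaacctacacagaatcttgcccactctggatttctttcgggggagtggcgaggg
Sspn, chr6:145933872-145934121: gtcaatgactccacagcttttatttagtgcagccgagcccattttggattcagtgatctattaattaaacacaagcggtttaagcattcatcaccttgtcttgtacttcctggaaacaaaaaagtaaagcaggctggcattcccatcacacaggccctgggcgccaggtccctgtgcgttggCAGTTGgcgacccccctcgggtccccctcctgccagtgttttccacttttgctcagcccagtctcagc

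The upstream Dmd window was the only member entry with a MEF2 site (244 bases before the start) or a CArG box (98 bases before it), and it also held 2 E-boxes. Of 32851 windows of the same length over all genes, 2.92% held a MEF2 site, 1.47% a CArG box and 66.2% an E-box. The downstream Dmd window, before the start of short transcripts, held none of the 3 motifs, nor did that of Sgcb or a second entry of Sspn. In the other windows, E-boxes alone were found, with 7 for Utrn (some overlapping), 2 for Sgcd, and 1 each for Sgca, Dag1 (the same letters in both of its entries) and the Sspn window shown. For Sgcd, 197 bases of the window lie in an annotated exon, among them the E-box 86 bases before the start. A match of letters is a description of the window and not evidence of binding.

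The deposited values are TPM, in which the read estimate of a gene is divided by transcript length and each library is brought to the same total. The read depth behind them is unknown, and precision rests on the spread between 4 mice. For the test, TPM were scaled per library by the median of ratios, a factor between 0.936 and 1.12, and log2(scaled TPM + 1) was fitted with limma over 14229 genes, those whose mean TPM reached 0.5. The tissue label was checked against 10 skeletal muscle fiber genes, among them Acta1 and Ckm, whose summed TPM was 106135 to 123898 in the 8 libraries. Nup210 itself was at 10.3 ± 1.38 TPM in libraries labelled Nup210-/- and 7.93 ± 2.06 TPM in libraries labelled Nup210+/+ (SD, n = 4). Gene TPM do not separate exon 2 from the rest of the transcript, so this level does not check the genotype, and every direction given rests on the labels. Nup210+/+ replicate 2 stood apart in 6 genes of granulocyte precursors, with a summed TPM of 381.69 against 0.31 to 2.12 in the other 7 libraries.

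On the TPM scale, which is per transcript length, Sgca was the most abundant member, with a mean of 114.3 TPM over the 8 libraries. Dag1 followed at 91.5, Sgcb at 52.5, Dtna at 42.1, Sspn at 30.4, Dmd at 28.9, Sgcd at 26.6 and Utrn at 5.24 TPM. Sgca was above Dag1, Dag1 above Sgcb, Dtna above Sspn and Sgcd above Utrn without any overlap of ranges over libraries. Sgcb and Dtna overlapped in range, although Sgcb was the higher of the pair within each of the 8 libraries. Dmd overlapped in range with both of its neighbours in the order, and Sspn exceeded it in 6 of 8 libraries and it exceeded Sgcd in 5 of 8. Sspn and Sgcd also overlapped in range, with Sspn the higher within each of the 8 libraries.

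**Figure D1:**
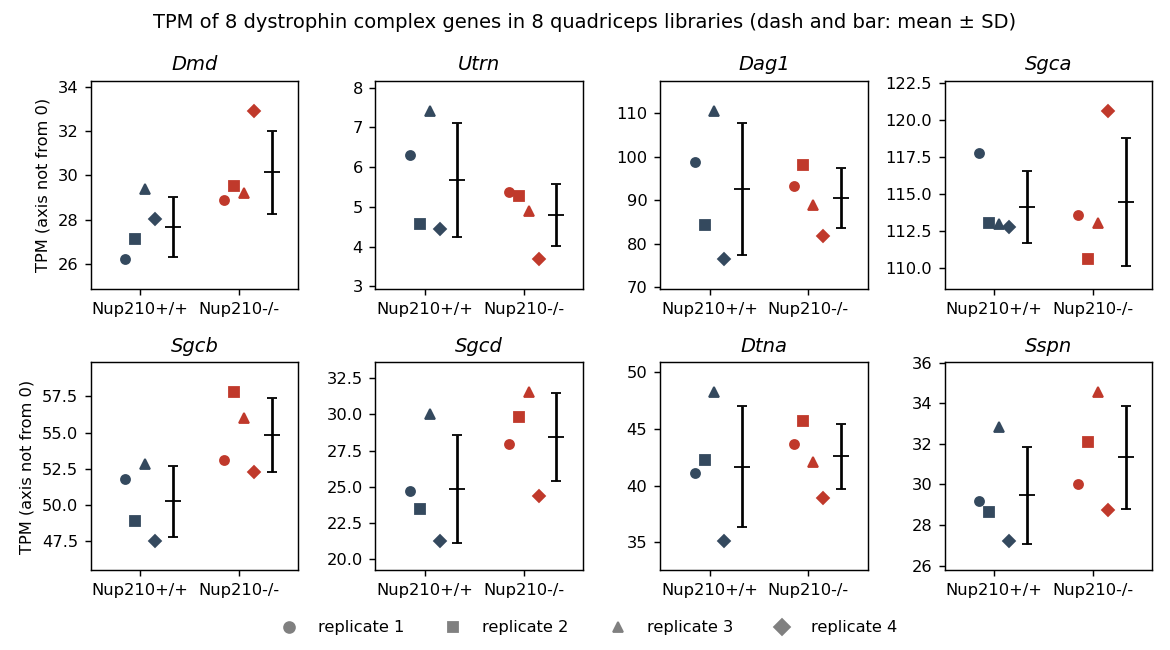
TPM of each of the 8 members (one panel per gene, y axis not starting at 0) in the 4 Nup210+/+ and 4 Nup210-/- libraries, with a symbol for each replicate number and the mean ± SD beside the points. The genotypes overlap in every panel, and Nup210+/+ replicate 3 is the highest library of its genotype in 7 of the 8 panels.

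Dmd, the dystrophin gene, had a mean of 30.1 TPM in libraries labelled Nup210-/- and 27.7 TPM in libraries labelled Nup210+/+, a difference that did not pass the adjusted test. It was at 28.89, 29.52, 29.19 and 32.91 TPM in Nup210-/- replicates 1 to 4 and at 26.21, 27.12, 29.39 and 28.02 TPM in Nup210+/+ replicates 1 to 4. On this scale, only Nup210+/+ replicate 3 reached into the Nup210-/- range, and Nup210-/- replicate 4 lay above all others. The log2 fold change was 0.21 (standard error 0.0769, 95% interval 0.04 to 0.38, unadjusted p = 0.0235, adjusted p = 0.272 from limma). The exact permutation test, two-sided over the 70 labelings with a smallest possible p of 0.0286, returned 0.0857 for TPM and 0.0571 for scaled TPM. Without Nup210-/- replicate 4 the log2 fold change was 0.15 (limma unadjusted p = 0.0652), and without Nup210+/+ replicate 1 it was 0.19 (limma unadjusted p = 0.0633).

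Utrn, which encodes utrophin, was the member with the lowest level and the only one with an estimate below 0. It was at 5.37, 5.27, 4.89 and 3.68 TPM in Nup210-/- replicates 1 to 4 and at 6.30, 4.57, 7.42 and 4.45 TPM in Nup210+/+ replicates 1 to 4. The genotypes overlapped widely, with Nup210+/+ replicates 1 and 3 above and Nup210-/- replicate 4 below the rest. The log2 fold change was −0.11 (standard error 0.143, 95% interval −0.43 to 0.21, limma adjusted p = 0.758), and a difference between genotypes was not detectable. With single libraries left out, the estimate ran from −0.19 (without Nup210+/+ replicate 2) to −0.023 (without Nup210-/- replicate 4).

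Dag1, which encodes the precursor of both dystroglycan subunits, varied more between Nup210+/+ mice than between genotypes. It was at 93.19, 98.11, 88.97 and 81.74 TPM in Nup210-/- replicates 1 to 4 and at 98.66, 84.39, 110.53 and 76.46 TPM in Nup210+/+ replicates 1 to 4. The Nup210-/- range lay wholly inside that of Nup210+/+. Its log2 fold change was 0.07 (standard error 0.0856, 95% interval −0.12 to 0.27, limma adjusted p = 0.723), and it was 0.025 without Nup210+/+ replicate 4 and 0.12 without Nup210+/+ replicate 3.

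Among the sarcoglycan members, Sgcb and Sgcd had the lowest limma p-values of all members. For Sgca, the muscle-specific alpha subunit, a difference between genotypes was not detectable. Sgcb was at 53.13, 57.79, 56.02 and 52.27 TPM in Nup210-/- replicates 1 to 4 and at 51.78, 48.87, 52.82 and 47.53 TPM in Nup210+/+ replicates 1 to 4. Only Nup210+/+ replicate 3 exceeded the lowest Nup210-/- library on TPM, and on scaled TPM the genotypes did not overlap. The log2 fold change of Sgcb was 0.22 (standard error 0.0513, 95% interval 0.10 to 0.33, unadjusted p = 0.00222, adjusted p = 0.138 from limma), with an exact permutation p of 0.0571 on TPM and 0.0286 on scaled TPM.

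Sgcd, the delta subunit, had the largest estimate of the 8 members. It was at 27.96, 29.82, 31.53 and 24.39 TPM in Nup210-/- replicates 1 to 4 and at 24.67, 23.49, 30.03 and 21.27 TPM in Nup210+/+ replicates 1 to 4. Replicate 3 was highest and replicate 4 lowest in each genotype, and the ranges overlapped on both scales. The log2 fold change was 0.28 (standard error 0.0813, 95% interval 0.10 to 0.47, unadjusted p = 0.00694, adjusted p = 0.192 from limma), with an exact permutation p of 0.229 on TPM and 0.0571 on scaled TPM. Sgca was at 113.61, 110.59, 113.03 and 120.63 TPM in Nup210-/- replicates 1 to 4 and at 117.76, 113.02, 112.94 and 112.78 TPM in Nup210+/+ replicates 1 to 4. On TPM, the genotype means of Sgca differed by less than the SD within either genotype. On scaled TPM they were 118.4 ± 7.90 in Nup210-/- and 110.6 ± 7.67 in Nup210+/+ (SD, n = 4), and the genotypes overlapped. The log2 fold change of Sgca was 0.10 (95% interval −0.06 to 0.26, limma adjusted p = 0.552).

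Sspn encodes sarcospan, the small tetraspanin-like protein that associates with the sarcoglycans. It was at 30.03, 32.08, 34.54 and 28.74 TPM in Nup210-/- replicates 1 to 4 and at 29.18, 28.66, 32.83 and 27.23 TPM in Nup210+/+ replicates 1 to 4. The genotypes overlapped on TPM through Nup210+/+ replicates 1 and 3 and did not overlap on scaled TPM. Its log2 fold change was 0.18 (standard error 0.0565, 95% interval 0.05 to 0.31, unadjusted p = 0.0117, adjusted p = 0.212 from limma), with an exact permutation p of 0.286 on TPM and 0.0286 on scaled TPM. Dtna, which encodes alpha-dystrobrevin of the inner side, was at 43.66, 45.70, 42.08 and 38.92 TPM in Nup210-/- replicates 1 to 4 and at 41.14, 42.24, 48.25 and 35.15 TPM in Nup210+/+ replicates 1 to 4. The Nup210-/- libraries of Dtna all lay inside the Nup210+/+ range, and its log2 fold change was 0.13 (95% interval −0.02 to 0.28, limma adjusted p = 0.418).

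None of the 8 members passed an adjusted p of 0.05 in limma, against 16 of 14229 tested genes, or 0.112%. Of those 16, 7 were higher in Nup210-/-, against 2 of 14 with TPM as deposited, 3 of 13 without mitochondrial and the 20 highest genes in the scaling, and 2 of 49 with scaling by muscle fiber genes. At an unadjusted p of 0.05, 4 members (Dmd, Sgcb, Sgcd and Sspn) were higher and 0 lower in Nup210-/-, where 7.00% of all tested genes were higher and 7.18% lower. The median log2 fold change of the members was 0.15, against −0.01 for all tested genes, and 7 of 8 estimates were above 0, against 48.7% of all. On scaled TPM, 2 members (Sgcb and Sspn) did not overlap between genotypes, where 9.38% of all tested genes did not. Without Nup210+/+ replicate 2 these counts were again 4 and 2, and 13% of all tested genes had an unadjusted p under 0.05 in limma. The number of members without overlap was 4 without Nup210+/+ replicate 3, and 3 without Nup210-/- replicate 3, Nup210-/- replicate 4 or Nup210+/+ replicate 4. Leaving out a library makes non-overlap easier to reach for any gene. The share of all tested genes without overlap was not computed for these subsets, so the higher counts cannot be read as a stronger difference.

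**Figure D2:**
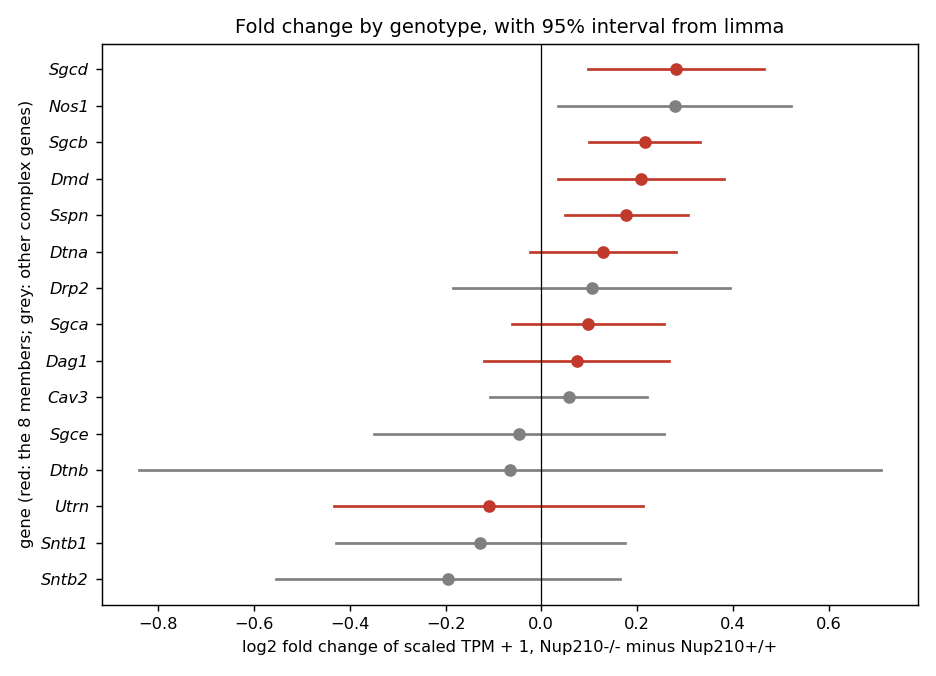
Log2 fold change (x axis, scaled TPM + 1, Nup210-/- minus Nup210+/+) with its 95% interval from limma for the 8 members (red) and 7 other tested genes of the complex (grey). The intervals of Dmd, Sgcb, Sgcd and Sspn lie above 0, as does that of Nos1, before any adjustment for the number of genes tested.

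These differences depended on how the libraries were scaled. The 10 muscle fiber genes used to check the tissue all had estimates above 0, with a median log2 fold change of 0.19, and their summed TPM was 114357 to 123898 in Nup210-/- and 106135 to 114748 in Nup210+/+. Summed TPM of 8 fibroblast genes was 726 to 860 in Nup210-/- and 903 to 1468 in Nup210+/+, and that of 8 leukocyte genes 126.6 to 144.9 and 159 to 308, without overlap in either list. No marker of these 3 lists was at 0 throughout. In bulk muscle, fewer cells of a type and less RNA per cell cannot be told apart. With the libraries scaled by the muscle fiber genes, the median of all tested genes shifted to −0.17 and that of the members to −0.03, and 0 members had an unadjusted p under 0.05 in limma, against 20.3% of all tested genes. Relative to the median of all tested genes, the members were 0.13 higher under that scaling and 0.16 higher under the main scaling. A scaling moves the log2 estimates of all but low genes by nearly the same amount. The likeness of these differences is therefore by construction and does not test whether the members stand apart. With TPM as deposited, the members had a median of 0.061 and again 0 had an unadjusted p under 0.05 in limma, against 14.2% of all tested genes.

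**Figure D3:**
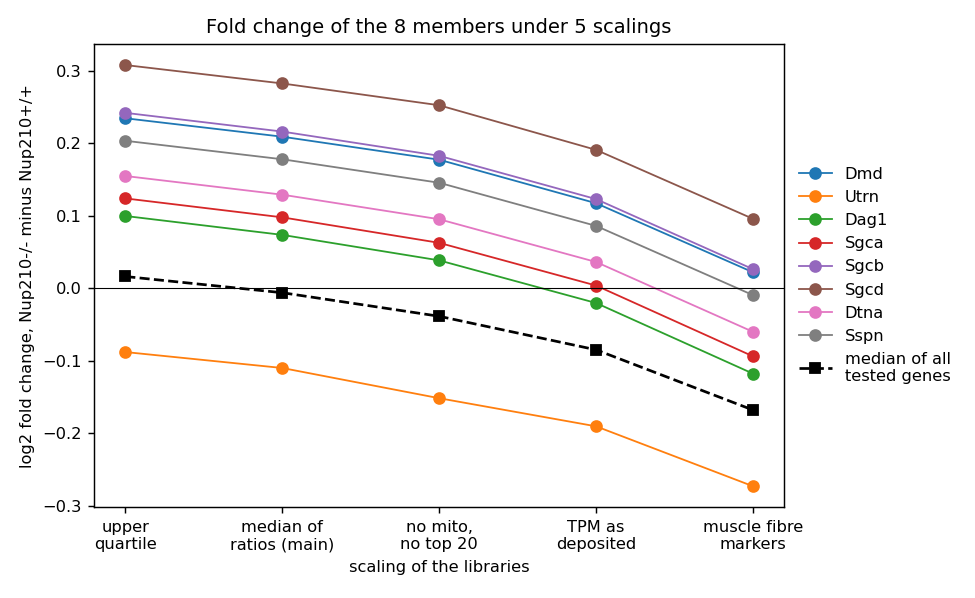
Log2 fold change of each member (y axis, Nup210-/- minus Nup210+/+) under 5 scalings of the libraries (x axis), with the median of all tested genes as a dashed line. All lines descend together from upper-quartile scaling to scaling by muscle fiber genes, where Dag1, Sgca, Dtna and Sspn join Utrn below 0 and the median of all tested genes is −0.17.

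Of the other genes of the complex or bound to it, 10 are reported here and 7 of these were tested. Nos1, neuronal nitric oxide synthase, which is bound to the complex through syntrophin, had a log2 fold change of 0.28 (limma unadjusted p = 0.0288, adjusted p = 0.290). Nup210-/- replicate 3 was highest for Nos1, at 29.63 TPM, while its genotype otherwise ranged from 18.57 to 23.53 TPM and Nup210+/+ from 19.79 to 21.78 TPM. Exons of Nos1 overlap those of Gm26995 on the opposite strand, with the same limit as for Dtna and Sspn. The remaining tested genes were Sgce (−0.05), Cav3 (0.06), Drp2 (0.11), Dtnb (−0.07), Sntb1 (−0.13) and Sntb2 (−0.19) in log2 fold change, with limma adjusted p-values of 0.603 or above. Sgce, the epsilon subunit found in many tissues, had a mean of 10.2 TPM against 114.3 for Sgca, its closest relative. Sgcz, the zeta-sarcoglycan gene, was listed at 0 in all 8 libraries, and Sntg1 and Sntg2 were below the minimum level for testing. The limma fit left 0 of these 7 with an adjusted p under 0.05, against 0.112% of all tested genes. With an unadjusted p under 0.05 in limma, 1 of the 7 was higher and 0 lower. The shares of all tested genes were 7.00% higher and 7.18% lower. The 7 had a median log2 fold change of −0.05, and their counts and median cover only the genes reported.

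Ratios within a library do not depend on scaling, and 8 of them were compared, of which 7 are reported. Dmd to Utrn was 5.38, 5.60, 5.97 and 8.94 in Nup210-/- replicates 1 to 4 and 4.16, 5.93, 3.96 and 6.30 in Nup210+/+ replicates 1 to 4, with Nup210-/- replicate 4 far above the others of its genotype. The mean log2 ratio was higher by 0.35 in Nup210-/-, within the spread of the libraries (exact permutation test, p = 0.257, adjusted over the 8 ratios 0.640). Without Nup210-/- replicate 4 this difference was 0.18. Sgcb to Sgca averaged 0.480 ± 0.0382 (SD) in the 4 Nup210-/- libraries and 0.440 ± 0.0197 (SD) in the 4 Nup210+/+ libraries, with an exact permutation p of 0.143 (adjusted 0.640). Sgcd to Sgca was 0.249 ± 0.0343 and 0.218 ± 0.0333 (SD, n = 4; exact permutation test, p = 0.286, adjusted 0.640). The other 4 ratios (Dmd to Dag1, Sgce to Sgca, Sspn to Sgca and Dtna to Dtnb) had exact permutation p-values between 0.371 and 0.800, and the genotypes overlapped in all 7.

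Within genotypes, the members did not all vary in the same sense. As deviations of log2(scaled TPM + 1) from the mean of the genotype over the 8 libraries, Utrn, Dag1, Dtna and Sgcd varied together, with Pearson r from 0.60 for Sgcd with Dtna to 0.94 for Utrn with Dag1. Dmd and Sgca varied together (r = 0.74) and in the opposite sense to all of these, with r from −0.88 for Sgca with Sgcd to −0.50 for Sgca with Dag1. Of 28 pairs, 8 had an r above 0.5 and 9 an r below −0.5. These values describe 8 libraries that share their scaling and are given without a test. Sgcb was close to 0 with Dmd and with Sspn (r = 0.01 each).

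Single libraries stood at the ends of several members at once. Nup210-/- replicate 4 was lowest of its genotype in scaled TPM for 5 members (Utrn, Dag1, Sgcd, Dtna and Sspn) and highest for Dmd and Sgca. Nup210+/+ replicate 4 was likewise highest for Dmd and Sgca and lowest for Dag1, Sgcd and Dtna, while Nup210+/+ replicate 3 was highest for Utrn, Dag1, Sgcd, Dtna and Sspn. Nup210+/+ replicate 3 also had the highest summed TPM of the fibroblast genes (1468) and of the leukocyte genes (308) and the lowest of the muscle fiber genes (106135), and the part of this in the pattern was not tested. Over the 8 libraries with genotypes pooled, Sgcd and Sspn were the closest pair, with Pearson r = 0.94 (exact permutation p = 0.000694, adjusted over the 28 pairs 0.0194) and Spearman rho = 0.90 (exact permutation p = 0.00456, adjusted 0.128). Without the 2 libraries farthest from the median of Sgcd, r was 0.95, and within genotypes it was 0.80. Utrn and Dag1, the closest pair within genotypes, had a pooled r of 0.77 and rho of 0.69 (exact permutation p = 0.0316 and 0.0694, adjusted 0.148 and 0.243), and r was 0.86 without the 2 libraries farthest from the median of Utrn. For both pairs the permutations moved libraries across genotypes. Their p-values therefore do not separate covariation from a genotype difference in both genes or from the shared scaling.

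**Figure D4:**
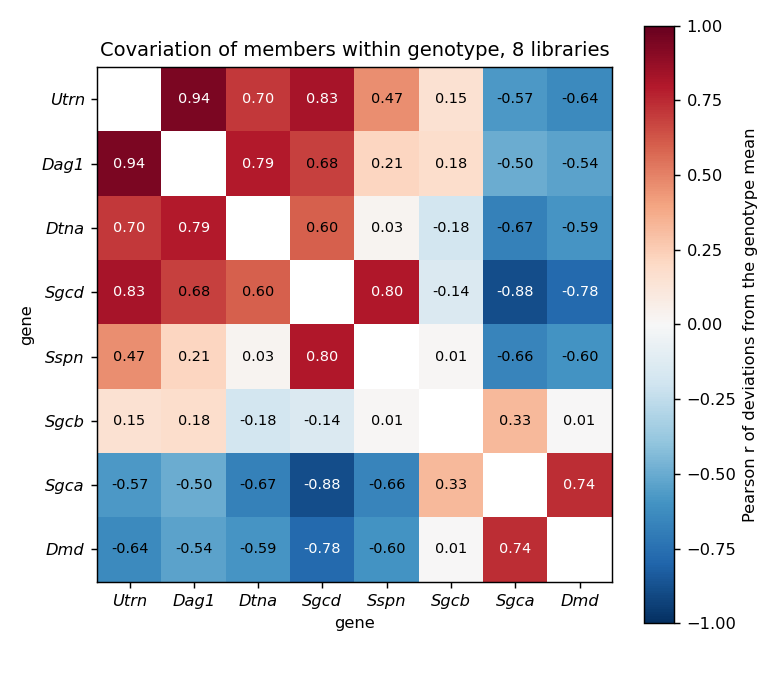
Pearson r between members (both axes are genes) of the deviations of log2(scaled TPM + 1) from the mean of their genotype, over 8 libraries. A group of positive values joins Utrn, Dag1, Dtna and Sgcd, and both Dmd and Sgca are negative with each of them, down to −0.88 for Sgca with Sgcd.

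Outside the gene lists of this comparison, the 3 tested genes most like Dmd over the 8 libraries, by Pearson r of log2(scaled TPM + 1), were Polg (r = 0.96), Uso1 (r = 0.96) and Stx4a (r = 0.96). Those most like Sspn were Mark3 (r = 0.97), Jup (r = 0.96) and Ywhag (r = 0.96). They are the highest of 14229 tested genes over 8 libraries and are given as a description.

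Genes that build and anchor the outer side of the complex had medians closer to 0 or below it. Of 20 enzymes that make the laminin-binding sugar chain of dystroglycan or its precursors, 19 were tested, and their median log2 fold change was 0.05. In limma, 0 passed an adjusted p of 0.05. At an unadjusted p of 0.05, 1 was higher and 1 lower, where 7.00% of all tested genes were higher and 7.18% lower. B3galnt2, which adds a sugar of the core chain, was highest, at 0.19 (unadjusted p = 0.0224, adjusted p = 0.268), and Dpm3, a subunit of the dolichol-phosphate-mannose synthase, was lowest, at −0.33 (unadjusted p = 0.0602, adjusted p = 0.372). Of 15 ligands and basement membrane genes, 14 were tested, with a median of −0.09 and 11 estimates below 0, where 48.7% of all tested genes were above 0. At an unadjusted p of 0.05 in limma, 0 were higher and 2 lower, where 7.00% of all tested genes were higher and 7.18% lower. Bgn, encoding the proteoglycan biglycan, was lowest, at −0.39 (unadjusted p = 0.00934, adjusted p = 0.203), and Lama5 was highest, at 0.37 (adjusted p = 0.518). The other gene lower at an unadjusted p of 0.05 was Lamc1, a laminin chain, at −0.33 (unadjusted p = 0.00468, adjusted p = 0.172), whose genotypes did not overlap on either scale. Lama2, the chain of muscle laminin that binds dystroglycan, had a log2 fold change of −0.03 (adjusted p = 0.896).

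Genes of the costamere, the rib-like attachment of the outer myofibrils to the membrane, and of the parallel integrin link had a median close to that of the members. Of 21 such genes, 20 were tested, with a median log2 fold change of 0.13 and 16 estimates above 0, against 48.7% of all tested genes. In limma, 0 passed an adjusted p of 0.05. At an unadjusted p of 0.05, 6 were higher and 1 lower, where 7.00% of all tested genes were higher and 7.18% lower. Sync, which encodes the intermediate filament protein syncoilin that binds dystrobrevin, was highest, with 18.04 ± 2.26 TPM (SD) in 4 Nup210+/+ libraries and 21.9 ± 1.91 TPM (SD) in 4 Nup210-/- libraries. Its log2 fold change was 0.36 (limma unadjusted p = 0.00131, adjusted p = 0.121). Krt19 was lowest, at −0.45 (limma adjusted p = 0.387). Its level was low, at 0.31 to 0.91 TPM in Nup210-/- and 0.76 to 2.60 TPM in Nup210+/+, with replicate 3 of Nup210+/+ highest. Beside Sync, those higher at an unadjusted p of 0.05 were Plec (0.26), Ank3 (0.26), Des, encoding desmin (0.24), Svil (0.22) and Itga7, the laminin-binding integrin subunit of muscle (0.21). Ilk, which encodes integrin-linked kinase, was the gene lower at that threshold, at −0.23 (limma unadjusted p = 0.0303, adjusted p = 0.295), without overlap on TPM and with overlap on scaled TPM. Itgb1, the partner subunit of Itga7, had a log2 fold change of 0.0013 (limma adjusted p = 0.991).

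**Figure D5:**
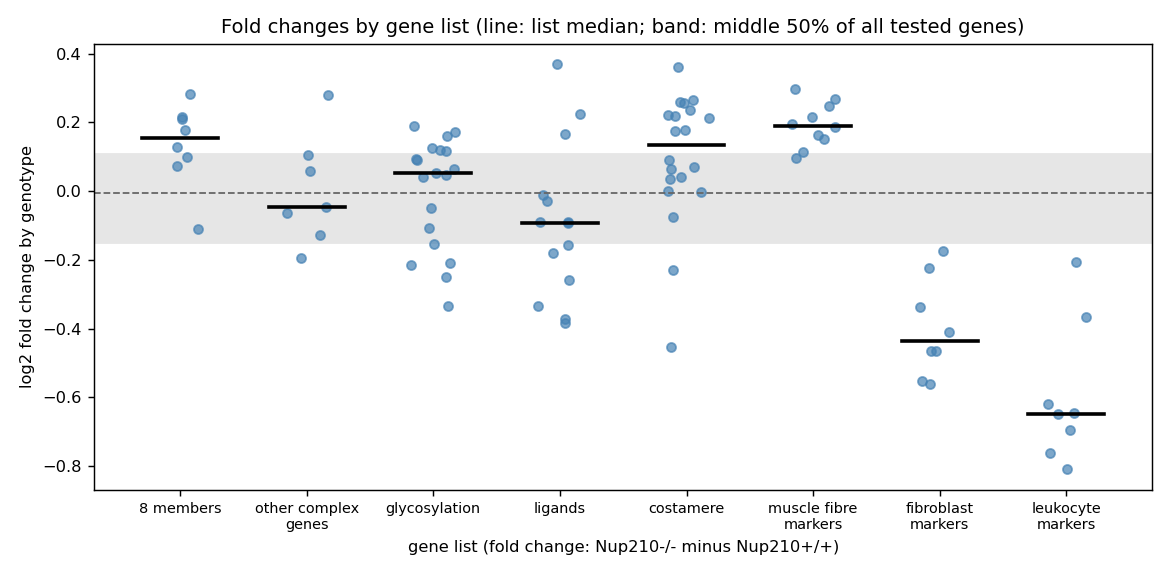
Log2 fold change of each tested gene (points; y axis, Nup210-/- minus Nup210+/+) in 5 lists of the complex and its partners and 3 marker lists (x axis), with the list median as a line and the middle 50% of all tested genes as a grey band. The members (median 0.15) and costamere genes (0.13) lie near the muscle fiber markers (0.19), and the fibroblast (−0.44) and leukocyte (−0.65) markers lie below the band.

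Markers of other cells that express members gave these values. Of 10 genes of the neuromuscular junction, where utrophin is concentrated, all were tested, with a median log2 fold change of 0.12. In limma, 0 passed an adjusted p of 0.05, against 0.112% of all tested genes. At an unadjusted p of 0.05, 2 were higher and 0 lower, where 7.00% of all tested genes were higher and 7.18% lower. Estimates were above 0 for 8 of the 10, against 48.7% of all tested genes. Summed TPM of the junction genes was 82.4 to 95.4 in Nup210-/- and 80.1 to 92.0 in Nup210+/+. Of 8 endothelial genes, all were tested, with a median of −0.000857 and summed TPM of 118.7 to 128.6 and 112.1 to 135.2. Smooth muscle and mural cell genes summed to 146.9 to 156.9 TPM in Nup210-/- and 154.8 to 191.8 TPM in Nup210+/+, and Schwann cell genes to 39.6 to 51.5 and 46.8 to 62.6 TPM. Genes of satellite cells summed to 36.3 to 41.6 TPM in Nup210-/- and 43.2 to 51.8 TPM in Nup210+/+, without overlap, and genes of regenerating fibers to 8.97 to 14.3 and 11.8 to 13.7 TPM. The satellite cell genes did not share a direction. Of them, 5 were tested, with a median log2 fold change of 0.08, 3 estimates above 0 and 2 below it. Sdc4 was lowest, at −0.36 (limma unadjusted p = 0.0129), and Cdh15 highest, at 0.33 (limma unadjusted p = 0.00466). No marker of these lists was at 0 in all libraries, and their part in the values of the members was not tested.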

How the data were processed

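Polyadenylated RNA from 8 quadriceps, 1 library per mouse, was read from 1 end for 75 bases. Per the methods and the submitters' processing notes, the authors trimmed reads with cutadapt 2.3, aligned them to mm10 with STAR 2.7.0d, estimated expression with RSEM 1.3.1 and Ensembl release 84 annotations, and deposited TPM per gene and library with 2 decimals. TPM express each gene as a part of its own library and keep no depth. The count-based test of the study could not be repeated on them. Here TPM were scaled by the median of ratios over 15225 genes above 0 in all libraries, 1 was added as a pseudocount, and 14229 genes, those whose mean TPM reached 0.5, were fitted with limma 3.58.1 in R 4.3.3 (eBayes with trend, genotype as the only term) with Benjamini-Hochberg adjustment over all of them. The fit was also run on data simulated from its own model, with normal noise and the fitted variances. Such data cannot show how the fit behaves where TPM depart from that model. Fold changes on log2(scaled TPM + 1) understate changes of low genes. Ratios were compared on deposited TPM, with no pseudocount.

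The members, lists and alternatives were chosen with earlier results of these data known. Named were all members, the tested genes of the complex (some genes and 1 ratio are not reported here, and those genes were left out of the counts of their list), the extremes of each list, Nup210, and the 3 genes most like Dmd and Sspn; Lama2, Itgb1 and the costamere and ligand genes with an unadjusted p under 0.05 were added after their values were seen. Groups came from the genotype labels. Same-numbered mice are different animals, and the correlations of their deviations, −0.03, 0.01, 0.02 and 0.09, did not pair them. No 2 libraries held the same values. Coordinates are from GENCODE M21 on GRCm38, matched by Ensembl identifier, and upstream sequences from RefSeq. Alternatives were other pseudocounts, filters, scalings, eBayes settings, library weights, the replicate number as a block, and each library left out. Figures used matplotlib 3.10.9.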

Additional observations from a re-analysis of the deposited data

Results flagged for a closer look

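For this check, TPM as deposited were used, and gaps on scaled TPM were not computed. Each library was compared with the other 3 of its genotype, as the gap of the highest or lowest to its nearest neighbour over the range of the 4. Of 46 such groups over the reported genes of the complex and the 8 ratios, 4 had a gap past the limit that chance passes in about 1 of 20, where 2.3 would be expected.

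Nup210-/- replicate 4 had 32.91 TPM of Dmd, where the others of its genotype had 28.89 to 29.52 TPM (gap 0.843 of the range). The same library had a Dmd to Utrn ratio of 8.94, against 5.38 to 5.97 (gap 0.835). Nup210+/+ replicate 1 had 117.76 TPM of Sgca, where the others had 112.78 to 113.02 TPM (gap 0.952). Cav3, which encodes the muscle caveolin, reached 32.29 TPM in Nup210+/+ replicate 1, where the other 3 libraries held 29.61 to 29.99 TPM (gap 0.858). On scaled TPM, Nup210+/+ replicate 1 was not the highest for Sgca, at 114.6 against 118.2 in Nup210+/+ replicate 4. For Cav3, these libraries were close on scaled TPM, at 31.4 and 31.0. Dmd in Nup210-/- replicate 4 stayed highest of its genotype, at 35.2 scaled TPM against 29.1 to 30.5.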

How the results depend on the processing

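No alternative brought a member past an adjusted p of 0.05: the count was 0 under all 21, and the lowest adjusted p of any member ran from 0.0966 with library weights to 0.394 with TPM as deposited. Members past an unadjusted p of 0.05 numbered 4, against 14.2% of all tested genes. They fell to 0 with TPM as deposited (14.2% of all tested genes) and with scaling by muscle fiber genes (20.3%). With single libraries left out they numbered 3 to 5, against 11% to 18.8% of all tested genes. The median log2 fold change of the members (0.15) was 0.061 with TPM as deposited and −0.035 with scaling by muscle fiber genes, and 0.15 to 0.18 with single libraries left out. The 16 tested genes past an adjusted p of 0.05 became 1 with any TPM above 0, 0 with a mean TPM of at least 0.1 (2244 at an unadjusted p), 27 with a mean of at least 1, 0 with upper-quartile scaling (2071 at an unadjusted p), 49 with muscle fiber scaling, 0 without the eBayes trend (1952), 84 with library weights, 0 with the replicate block (1850), and 0 to 10 with single libraries left out.

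Estimates changed sign, with no call involved, for Dag1 (−0.020) and Cav3 (−0.035) with TPM as deposited. With muscle fiber scaling they did for Dag1 (−0.12), Sgca (−0.094), Dtna (−0.060), Sspn (−0.0094), Drp2 (−0.0091) and Cav3 (−0.13). Dtnb became 0.080 with library weights and ranged from −0.31 to 0.14 with single libraries left out, and Sgce from −0.12 to 0.066. Of the ratios, Sgce to Sgca ranged from −0.26 to 0.019 and Dtna to Dtnb from −0.22 to 0.69. With the replicate block the 4 members stayed at an unadjusted p under 0.05, against 13% of all tested genes, and no member was called. The replicate numbers did not pair the mice, since 2 of 8 libraries correlated best with their own number. Without depth, counting error cannot be separated from the spread between mice.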
